A study of Mus musculus with 4 samples.

Results

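The genes examined here were 36 genes of type I interferon sensing, signalling and response, taken as the rows of the expression table whose symbol was on the list. All 36 were found among the 14936 genes of the table, and all 36 passed the filter on low counts. By role they were 2 subunits of the interferon receptor, 4 transcription factors, 4 nucleic acid sensors and 26 effectors. RNA was sequenced from macrophages grown from mouse bone marrow with M-CSF at 20 ng/ml and then kept with 20 ng/ml of IL-4, over 12 h or over 24 h. The cells were labelled WT or Phlpp1-deficient (KO; Phlpp1 encodes a phosphatase of the kinase AKT), with 1 library for each genotype at each time, so 4 libraries in all. The labels give neither the allele, the strain, the age nor whether each library stands for its own animal or culture. All 4 libraries came from cells given IL-4, and none is labelled as given interferon, so the values show neither a response to IL-4 nor induction by interferon.

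Type I interferons bind a receptor of the subunits IFNAR1 and IFNAR2, and the kinases JAK1 and TYK2 then act on STAT proteins, among them STAT2. With IRF9, STAT2 is part of the complex ISGF3, which binds the interferon-stimulated response element (ISRE) in front of many antiviral genes. Among the products of those genes are IRF7, which amplifies interferon production, and sensors of viral RNA. Macrophages express part of this programme without infection, from low tonic interferon signalling.

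Total counts ran from 36707999 to 41770309 per library. Phlpp1 went against the labels, with 11.9 and 15.6 CPM (CPM are counts relative to the TMM-scaled library total) in the libraries labelled WT at 12 h and 24 h and 42.9 and 62.6 CPM in those labelled KO. The genotype of every library is therefore given as labelled, and each direction below is that of labelled KO against labelled WT. All 8 macrophage markers were in the table. Their summed level was 16531 to 17402 CPM in the libraries labelled KO and 20150 to 21385 CPM in those labelled WT. Most of that sum was 1 gene, Lyz2. It had 14478 and 11009 CPM at 12 h and 13265 and 10517 CPM at 24 h in labelled WT and KO. In the genotype test described below, 5 of the 8 were called lower, where 5.34% of all genes were. Csf1r, Cd68 and Itgam were not called. Summed neutrophil markers (8 of 8 in the table) were at 675 to 790 CPM in those labelled KO and 950 to 1044 CPM in those labelled WT. Summed stromal markers (8 of 8) were at 149.9 to 179 CPM and 92.0 to 108 CPM. Of 7 neutrophil markers tested, 5 were called lower, and Elane and Mpo were not called. Of 7 stromal markers tested, 6 were called higher, where 4.18% of all genes were. The plasmacytoid dendritic cell list, a cell type known for making type I interferon, had 6 of 7 genes in the table and summed to 3.68 to 4.37 CPM, with the defining marker Siglech at 0 to 0.171 CPM. Conventional dendritic cell markers (4 of 5 in the table) summed to 3.01 to 6.14 CPM and lymphocyte markers (7 of 7) to 0.831 to 1.87 CPM. The part of these markers in the results below was not tested, and in bulk RNA fewer cells of a type and less RNA per cell cannot be told apart.

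The ISRE core was looked for in the promoters of the members, since it is the element ISGF3 binds. RefSeq promoters on GRCm38.p6, running from 250 bases before to 50 bases after the start, were matched by symbol for 28 of the 36 members. The letters GAAANNGAAA, on either strand, were present in at least 1 promoter for 11 of these 28 members. Counted by gene in the same way, they were present for 3.88% of the 11789 genes of the expression table with a 300-base promoter. Of the members called lower for labelled KO below, 6 of the 9 with a promoter held a match, and of those not called 5 of 18 did. By role a match was found for 0 of 2 receptor subunits, 1 of 4 transcription factors, 2 of 2 sensors and 8 of 20 effectors. The windows of the 6 called members with an upstream match are printed to show where the element lies in genes called for genotype, and they were picked for the match. Each is written 5′ to 3′ on the strand of its gene, and capitals mark the match (TTTCNNTTTC where it lies on the other strand).
Ifit3: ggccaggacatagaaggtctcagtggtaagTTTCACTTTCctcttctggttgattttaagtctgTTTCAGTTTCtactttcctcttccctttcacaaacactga
Oas3: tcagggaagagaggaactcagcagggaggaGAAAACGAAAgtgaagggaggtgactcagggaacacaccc
Stat2: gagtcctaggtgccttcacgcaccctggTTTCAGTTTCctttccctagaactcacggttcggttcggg
Rsad2: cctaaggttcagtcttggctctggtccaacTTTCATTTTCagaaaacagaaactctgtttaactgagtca
Isg15: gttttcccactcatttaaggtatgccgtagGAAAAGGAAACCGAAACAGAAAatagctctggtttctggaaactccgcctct
Ifit1: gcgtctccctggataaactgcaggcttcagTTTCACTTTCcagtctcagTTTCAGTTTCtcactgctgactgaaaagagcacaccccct
The Ifit3 window lies at chr19:34583343-34583446 on the plus strand and that of Oas3 at chr5:120777695-120777764 on the minus strand. The Stat2 window lies at chr10:128270248-128270315 on the plus strand, and that of Rsad2 at chr12:26456533-26456602 on the minus strand. The Isg15 window lies at chr4:156200845-156200926 on the minus strand, with 3 overlapping matches, and that of Ifit1 at chr19:34640755-34640843 on the plus strand, with 2 separate matches like Ifit3. A match describes letters and does not show that a factor binds there.

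**Figure D1:**
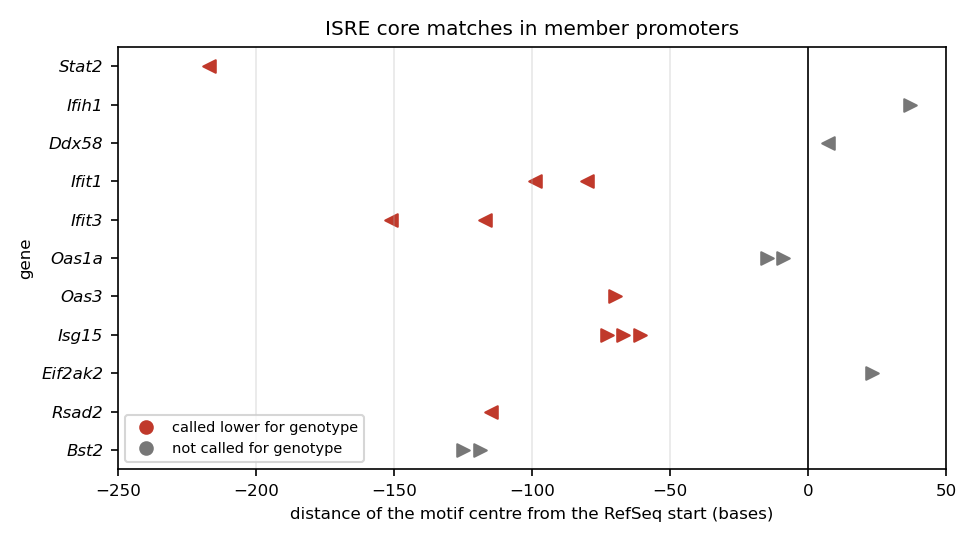
Distance in bases from the RefSeq start (x axis) of the centre of each ISRE core match in the 11 members that hold one (y axis), red for members called lower for genotype and grey for those not called, with arrows for the strand. All red matches lie upstream of the start, the farthest in Stat2, while those of the sensors Ifih1 and Ddx58 lie just after it.

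The STAT6-type element TTCNNNNGAA, the spacing preferred by the factor that IL-4 activates, was looked for in the same way. It reads the same on both strands and was in at least 1 promoter of 5 of 28 members, beside 6.79% of the 11789 genes of the expression table with a promoter. Irf7 and Cmpk2 held no match of the ISRE core in this window, and Ifit2 held none either. A missing match says only that these letters are not in the 300 bases searched.

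Members differed in level per length, for which the deposited FPKM values (counts relative to gene length and library total) were used. The gene lengths behind them were not checked. The highest mean level over the 4 libraries was that of Bst2, tetherin, a membrane protein that holds budding virus at the cell surface, at 272 FPKM (201 to 329 over libraries). Irf7 followed at 127 FPKM (74.3 to 186), then Ifi27l2a at 85.8 FPKM and Oasl2 at 73.7 FPKM. At the other end were Ifi44 at 9.58 FPKM, Oasl1 at 9.37 FPKM and Herc6 at 7.51 FPKM. For 34 of the 35 pairs of neighbours in this order the ranges over the 4 libraries overlapped, and the exception was Bst2 above Irf7. The receptor subunits had nearly the same level as each other, Ifnar1 25.1 FPKM and Ifnar2 22.7 FPKM, with narrow ranges over the libraries.

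**Figure D2:**
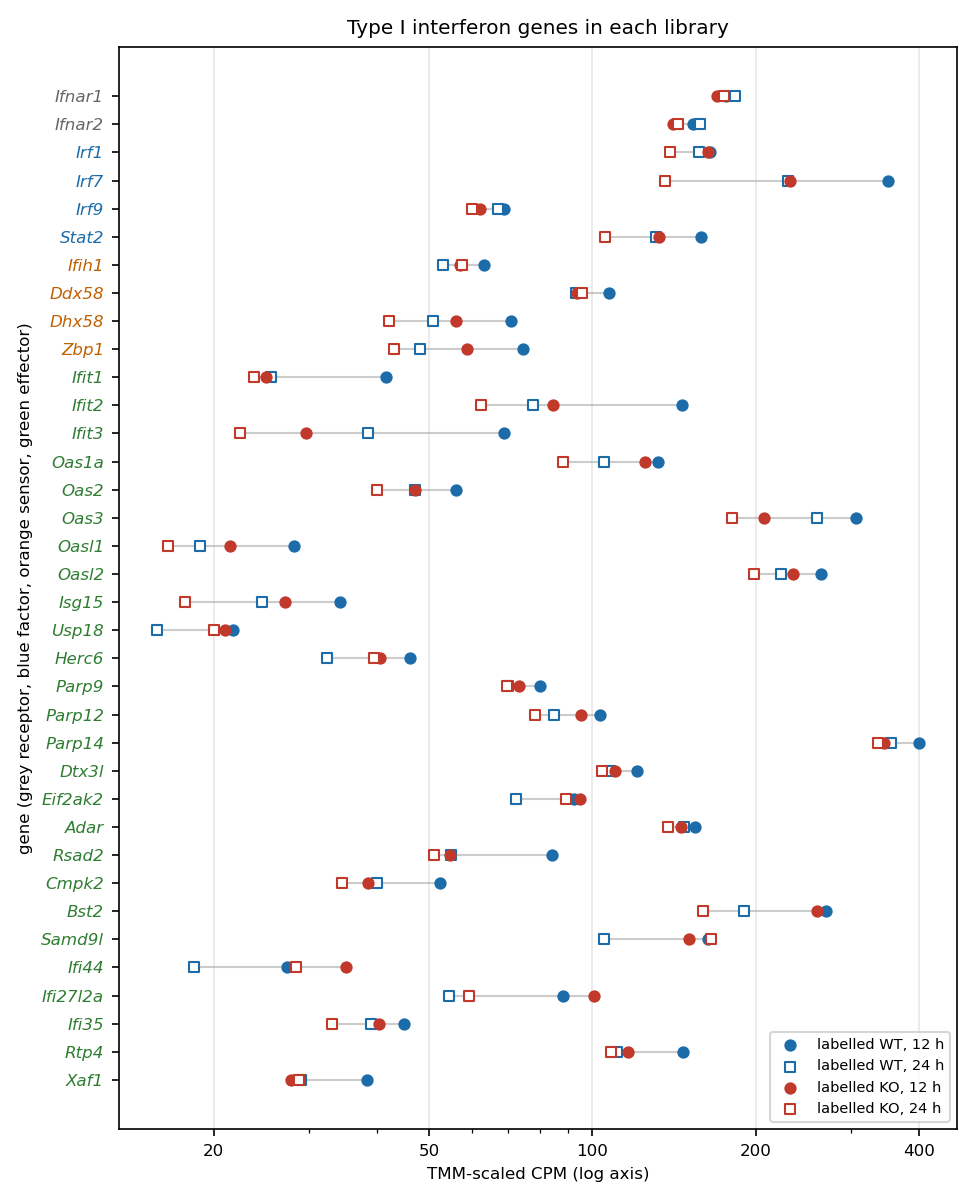
TMM-scaled CPM (x axis, log scale) of the 36 members (y axis, coloured by role) in each of the 4 libraries, where a point is 1 library and a grey line joins a gene's lowest and highest. The library labelled WT at 12 h was the highest for 30 of the 36 members and that labelled KO at 24 h the lowest for 25, while Ifnar1 and Ifnar2 barely spread.

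The library labelled WT at 12 h had the highest CPM of the 4 for 30 of the 36 members, where 22.0% of all 10993 genes tested had it highest. The library labelled KO at 24 h had the lowest CPM for 25 members, where 29.6% of all genes had it lowest. Summed over the members, CPM was 4399 in labelled WT and 3716 in labelled KO at 12 h, and 3521 and 3192 at 24 h. The sum was thus lower in labelled KO at each time and lower at 24 h in each genotype, and it has no replicate error.

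The comparison of genotypes asks which interferon genes differ in macrophages labelled Phlpp1-deficient. Of the 36 members, 10 were lower and 1 was higher in the libraries labelled KO, where 5.34% of all genes tested were called lower and 4.18% higher. The 10 were the transcription factor genes Irf7 and Stat2, the sensor gene Dhx58, and the effector genes Ifit1, Ifit2, Ifit3, Oas3, Isg15, Rsad2 and Cmpk2, and the 1 higher was Ifi44. The median fold over all members was log2 -0.16, beside log2 -0.0025 over all genes tested, and 30 of 36 members were below 0. A call is an adjusted p under 0.05 in edgeR's quasi-likelihood test of genotype beside time, with Benjamini-Hochberg adjustment over 10993 genes. The model has 1 residual degree of freedom, and its p-values reflect no more than how these 4 libraries differ, which can be technical. The count of 10 lower changed with the model and with the libraries used. The shares of all genes called in those other fits are not given, here or below. A smaller count there is therefore not a result about the members. In a model of genotype alone it was 1 (Oas3) with all libraries. A fit of that model with 1 library dropped leaves 1 labelled genotype at 1 time only. The difference between times then enters the genotype fold and the count, here and in every such fit below. Dropping 1 library from that model gave 0 for the 12 h library labelled WT, 9 for the 12 h library labelled KO, 6 for the 24 h library labelled WT and 2 for the 24 h library labelled KO. Ifi44 was not called in the model of genotype alone, nor there after dropping the 12 h library labelled KO or the 24 h library labelled WT. DESeq2 called 4 lower (Irf7, Ifit2, Ifit3 and Oas3) and Ifi44 higher, and the same 5 genes were called when libraries were scaled by their totals alone.

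Split by role, the median genotype fold was log2 -0.09 for the 2 receptor subunits, log2 -0.22 for the 4 transcription factors, log2 -0.17 for the 4 sensors and log2 -0.17 for the 26 effectors. Called lower were 0 of 2 receptor subunits, 2 of 4 transcription factors, 1 of 4 sensors and 7 of 26 effectors, and no difference between roles was tested. Counting the 5 OAS family genes and Eif2ak2, whose products also bind double-stranded RNA, as sensors gave 2 of 10 sensors called lower with a median of log2 -0.20, and 6 of 20 other effectors with a median of log2 -0.15. Folds within the transcription factors and within the effectors ranged more widely than the medians of the roles, as the plot of fitted folds shows.

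**Figure D3:**
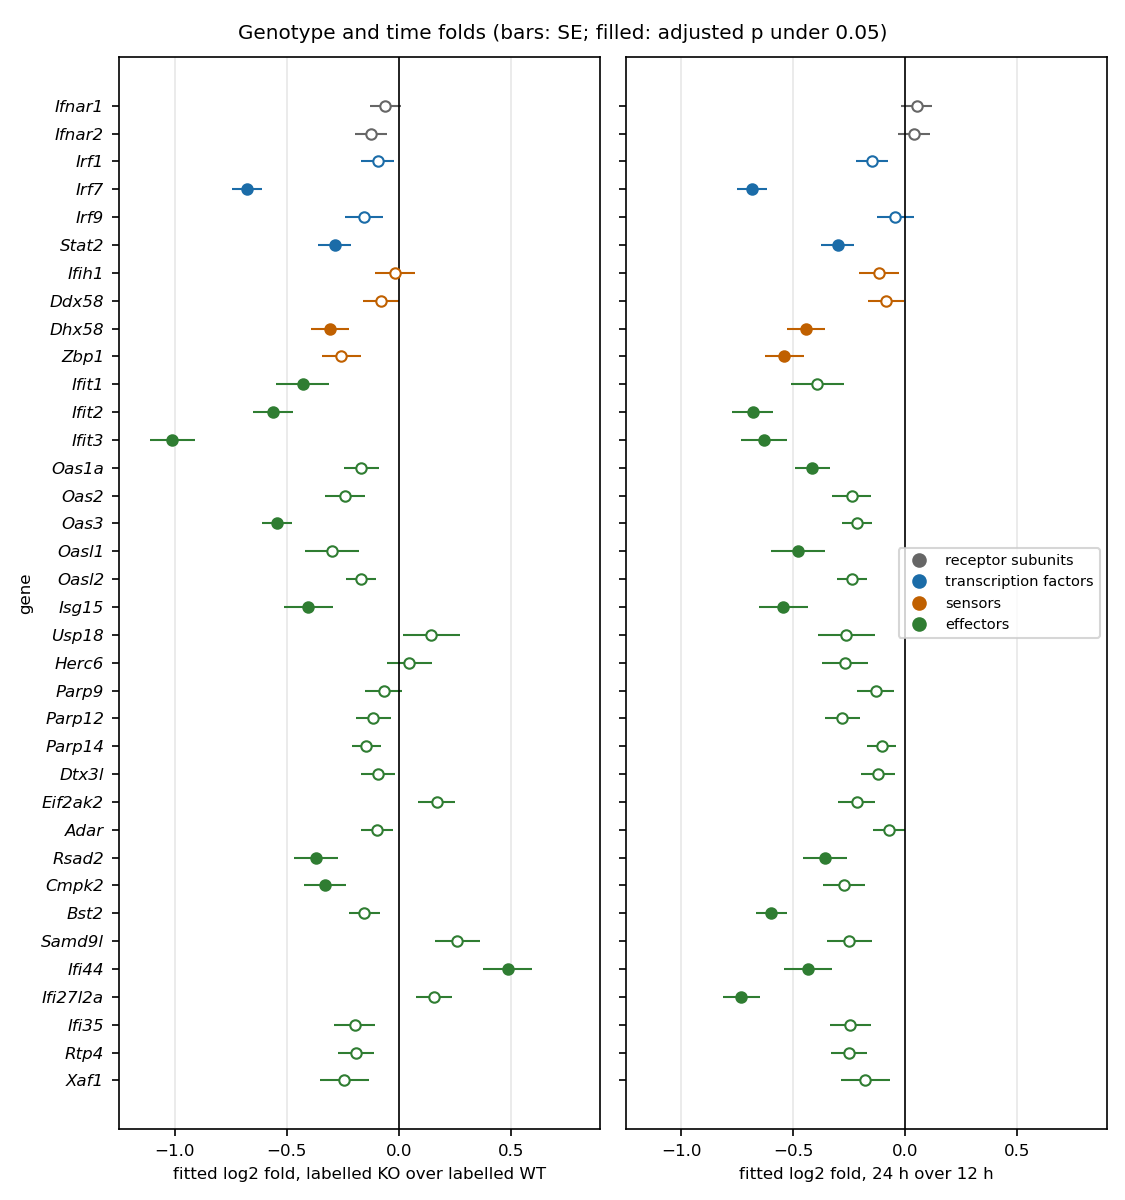
Fitted log2 folds of the 36 members (y axis) for labelled KO over labelled WT (left) and 24 h over 12 h (right), with bars of 1 SE and filled points for an adjusted p under 0.05. On the left Ifit3 and Irf7 stand farthest below 0 and Ifi44 above it, and on the right only the receptor subunits lie above 0.

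The receptor subunits hardly varied. Ifnar1, the signalling subunit, had 176 and 170.1 CPM at 12 h and 183 and 175 CPM at 24 h in labelled WT and KO. Ifnar2, the subunit that binds interferon with high affinity, had 153 and 141 CPM at 12 h and 158 and 144 CPM at 24 h. Both were lower in both labelled KO libraries than in both labelled WT ones, by little, and neither was called (log2 -0.06, edgeR adjusted p = 0.712, and log2 -0.12, edgeR adjusted p = 0.350).

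Among the transcription factors, Irf7, the factor that drives interferon alpha gene transcription, differed the most. It had 351 CPM in the library labelled WT and 231 CPM in that labelled KO at 12 h, and 229.6 CPM and 136 CPM in those labelled WT and KO at 24 h. Irf7 was highest in labelled WT at 12 h and lowest in labelled KO at 24 h, with the other two libraries level with each other, so the ranges of the labelled genotypes just overlapped. The fold was log2 -0.68 ± 0.07 (SE), edgeR adjusted p = 1.68e-08, and the labelled KO library was lower by 1.52-fold (95% counting interval 1.48 to 1.56) at 12 h and by 1.69-fold (95% counting interval 1.63 to 1.75) at 24 h. These intervals come from the counts of 2 libraries and cover counting error only, since no molecular identifiers are recorded. In the model of genotype alone, with each library dropped in turn, the edgeR adjusted p for genotype ran from 0.000253 to 0.702. Irf7 (chr7:141262706-141266481, minus strand) shares exon sequence with Phrf1 on the other strand, and strand handling is not recorded in the labels.

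Stat2, a subunit of ISGF3, had 158 CPM in the library labelled WT and 133 CPM in that labelled KO at 12 h, and 131 CPM and 105 CPM in those labelled WT and KO at 24 h. Its order over the libraries was that of Irf7, with smaller gaps (log2 -0.29 ± 0.07 (SE), edgeR adjusted p = 0.00922). Irf9, the DNA-binding subunit of ISGF3, had 68.8 and 61.9 CPM at 12 h and 66.8 and 59.8 CPM at 24 h in labelled WT and KO. It was not called (log2 -0.16, edgeR adjusted p = 0.301), although both labelled KO libraries were below both labelled WT ones. Irf9 shares exon sequence with Rnf31 on the same strand, so reads there could belong to either gene. Irf1, a factor induced mainly by interferon gamma, had 165 and 164 CPM at 12 h and 158 and 139 CPM at 24 h, with the labelled KO library at 24 h below the other 3 libraries, and was not called (log2 -0.09, edgeR adjusted p = 0.526).

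The sensors fell into pairs. Dhx58 encodes LGP2, which regulates the RNA sensors RIG-I and MDA5, and had 70.7 CPM in the library labelled WT and 55.9 CPM in that labelled KO at 12 h, and 50.8 CPM and 42.1 CPM in those labelled WT and KO at 24 h. It was lower in labelled KO at each time and lower at 24 h in each genotype (log2 -0.31 ± 0.09 (SE), edgeR adjusted p = 0.0180 for genotype). Zbp1, a sensor of Z-form nucleic acids that can start necroptosis, had 74.5 and 58.7 CPM at 12 h and 48.2 and 43.0 CPM at 24 h in labelled WT and KO. It showed the same order over the libraries as Dhx58 but was just not called for genotype (log2 -0.26 ± 0.09 (SE), edgeR adjusted p = 0.0598).

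The 2 genes of the RNA sensors RIG-I and MDA5 had smaller folds. Ddx58, which encodes RIG-I, had 107 and 93.8 CPM at 12 h and 93.4 and 95.5 CPM at 24 h in labelled WT and KO, and only the library labelled WT at 12 h stood apart from the rest. Ifih1, which encodes MDA5, had 63.1 and 57.0 CPM at 12 h and 53.1 and 57.5 CPM at 24 h, so labelled KO was below labelled WT at 12 h and above it at 24 h. Neither was called (log2 -0.08, edgeR adjusted p = 0.656, and log2 -0.02, edgeR adjusted p = 0.954). The fitted fold of Ifih1 turned to log2 0.04 when libraries were scaled by their totals alone, a scaling that moved the median of all genes to log2 0.05.

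All 3 IFIT genes, whose products form complexes that bind viral RNA and hold back its translation, were called lower. Ifit3 had 68.8 CPM in the library labelled WT and 29.6 CPM in that labelled KO at 12 h, and 38.5 CPM and 22.3 CPM in those labelled WT and KO at 24 h. Both labelled KO libraries were below both labelled WT libraries, and the fold was log2 -1.01 ± 0.10 (SE), edgeR adjusted p = 1.92e-08. The labelled KO library was lower by 2.33-fold (95% counting interval 2.17 to 2.49) at 12 h and by 1.72-fold (95% counting interval 1.58 to 1.88) at 24 h. Ifit3 was the only member at least 2-fold apart between 2 libraries that differ in 1 factor, on the log2(CPM + 1) scale. Its near-identical neighbour Ifit3b, not a member, was lower as well (log2 -1.14, edgeR adjusted p = 0.00262) at 6.23 and 2.60 CPM at 12 h and 4.45 and 2.23 CPM at 24 h, and reads of the pair may have been split between them.

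Ifit2 had 147 CPM in the library labelled WT and 84.6 CPM in that labelled KO at 12 h, and 77.6 CPM and 62.3 CPM in those labelled WT and KO at 24 h. The library labelled WT at 12 h stood far above the rest, and the labelled KO library was the lower one at each time (log2 -0.56 ± 0.09 (SE), edgeR adjusted p = 5.24e-05). Ifit1 had 41.6 CPM in the library labelled WT and 25.0 CPM in that labelled KO at 12 h, and 25.6 CPM and 23.8 CPM in those labelled WT and KO at 24 h. Here the library labelled WT at 12 h alone was high and the other 3 lay close together, although both labelled KO libraries were the lowest (log2 -0.43 ± 0.12 (SE), edgeR adjusted p = 0.0178). For Ifit1 the labelled KO library was lower by 1.67-fold (95% counting interval 1.54 to 1.8) at 12 h, while at 24 h it was 1.07-fold (95% counting interval 0.979 to 1.18), which includes 1. The 3 genes lie in a row on the plus strand of chromosome 19, Ifit2 at chr19:34550694-34576419, Ifit3 at chr19:34583531-34588731 and Ifit1 at chr19:34640871-34650009 (GRCm38). In the model of genotype alone, with each library dropped in turn, the edgeR adjusted p ran from 0.000234 to 0.151 for Ifit3, from 0.00442 to 0.95 for Ifit2 and from 0.0144 to 0.955 for Ifit1.

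Of the 5 OAS family genes, whose products make short oligoadenylates that activate RNase L or are relatives of those enzymes, Oas3 alone was called lower. It had 306 CPM in the library labelled WT and 207 CPM in that labelled KO at 12 h, and 260.1 CPM and 181 CPM in those labelled WT and KO at 24 h. Both labelled KO libraries were below both labelled WT libraries, by close to the same ratio at each time, 1.48-fold (95% counting interval 1.44 to 1.52) at 12 h and 1.44-fold (95% counting interval 1.39 to 1.48) at 24 h. The fold was log2 -0.54 ± 0.07 (SE), edgeR adjusted p = 6.73e-07, and it was the 1 member still called in the model of genotype alone, where the edgeR adjusted p with each library dropped in turn ran from 0.000677 to 0.162. The next gene on chromosome 5, Oas2, lies 3244 bases away on the same strand and had 56.0 and 47.1 CPM at 12 h and 47.1 and 40.1 CPM at 24 h in labelled WT and KO (log2 -0.24, edgeR adjusted p = 0.0864). Oas1a, in the same cluster, had 132 and 125 CPM at 12 h and 105 and 88.3 CPM at 24 h (log2 -0.17, edgeR adjusted p = 0.207). The OAS-like genes Oasl1, which holds back IRF7 translation in mice, and Oasl2, an active enzyme, were not called (log2 -0.30, edgeR adjusted p = 0.131, and log2 -0.17, edgeR adjusted p = 0.117). Oasl1 had 28.2 and 21.4 CPM at 12 h and 18.8 and 16.5 CPM at 24 h, and Oasl2 had 264 and 234 CPM at 12 h and 223 and 199 CPM at 24 h. In both the order over libraries was that of Irf7, from labelled WT at 12 h down to labelled KO at 24 h. Oas1a and the Oasl genes share sequence with paralogs, so their counts are uncertain.

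The ISG15 system divided. Isg15, a ubiquitin-like protein attached to other proteins, had 34.2 CPM in the library labelled WT and 27.1 CPM in that labelled KO at 12 h, and 24.6 CPM and 17.7 CPM in those labelled WT and KO at 24 h. Labelled KO was the lower at each time, with 24 h below 12 h in each genotype (log2 -0.40 ± 0.11 (SE), edgeR adjusted p = 0.0143). Usp18, the protease that removes ISG15 and blocks the receptor, had 21.7 and 21 CPM at 12 h and 15.7 and 20.0 CPM at 24 h in labelled WT and KO, where the library labelled WT at 24 h was the low one. Herc6, the main ISG15 ligase in mice, had 46.0 and 40.6 CPM at 12 h and 32.4 and 39.5 CPM at 24 h, with the same library lowest. Neither was called (log2 0.14, edgeR adjusted p = 0.594, and log2 0.05, edgeR adjusted p = 0.867).

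Rsad2 and Cmpk2 are neighbours on chromosome 12, 12751 bases apart and transcribed away from each other, and were both called lower. Rsad2 encodes viperin, which makes a chain-terminating nucleotide, and had 84.1 CPM in the library labelled WT and 54.5 CPM in that labelled KO at 12 h, and 54.9 CPM and 51.0 CPM in those labelled WT and KO at 24 h. The library labelled WT at 12 h was high and the other 3 lay within a few CPM, both labelled KO libraries lowest (log2 -0.37 ± 0.10 (SE), edgeR adjusted p = 0.0110). Cmpk2 encodes the mitochondrial nucleotide kinase whose product feeds viperin, and had 52.2 CPM in the library labelled WT and 38.5 CPM in that labelled KO at 12 h, and 40.0 CPM and 34.5 CPM in those labelled WT and KO at 24 h. It had the same highest library and a smaller spread (log2 -0.33 ± 0.09 (SE), edgeR adjusted p = 0.0200).

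Ifi44, an interferon-induced cytoplasmic protein, went the other way. It had 27.3 CPM in the library labelled WT and 35.1 CPM in that labelled KO at 12 h, and 18.4 CPM and 28.3 CPM in those labelled WT and KO at 24 h. Both labelled KO libraries were above both labelled WT libraries, by a narrow margin between labelled KO at 24 h and labelled WT at 12 h, and the fold was log2 0.49 ± 0.11 (SE), edgeR adjusted p = 0.00273. It was the only member with this order, where 21.6% of all genes tested had both labelled KO libraries above both labelled WT ones. The opposite order, both labelled KO below both labelled WT, held for 11 members (Ifnar1, Ifnar2, Irf9, Ifit1, Ifit3, Oas3, Parp14, Adar, Rsad2, Cmpk2 and Xaf1), a share near the 23.1% of all genes.

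The remaining members were not called for genotype. The ADP-ribosyltransferase genes Parp9, Parp12 and Parp14 and Dtx3l, which encodes the ubiquitin ligase partner of PARP9, had folds of log2 -0.14 (Parp14) to log2 -0.07 (Parp9). Parp14 had 400.4 and 346 CPM at 12 h and 355 and 336 CPM at 24 h in labelled WT and KO, and Parp12 had 103 and 95.4 CPM at 12 h and 84.9 and 78.5 CPM at 24 h. Parp9 had 79.9 and 73.2 CPM at 12 h and 69.9 and 69.6 CPM at 24 h and Dtx3l had 121 and 109.9 CPM at 12 h and 108 and 104 CPM at 24 h. In each of these 4 genes the library labelled WT at 12 h was the highest of the 4 and that labelled KO at 24 h the lowest. Parp9 and Dtx3l overlap at their ends on opposite strands, and strand handling is not recorded, so reads there may not have been told apart. Eif2ak2, which encodes the RNA-dependent kinase PKR, had 92.4 and 94.8 CPM at 12 h and 72.4 and 89.5 CPM at 24 h in labelled WT and KO (log2 0.17, edgeR adjusted p = 0.241). Adar, an RNA-editing enzyme that keeps self RNA from the sensors, had 155 and 146 CPM at 12 h and 148 and 138 CPM at 24 h (log2 -0.10, edgeR adjusted p = 0.507). Eif2ak2 shares exon sequence with Gm26637 and n-R5s29, and Adar with Chrnb2, all on the other strand, so the same limit holds there. Bst2 had 269 and 259 CPM at 12 h and 191 and 159.9 CPM at 24 h and differed between genotypes mainly at 24 h (log2 -0.15, edgeR adjusted p = 0.198).

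Samd9l, an antiviral factor that restrains translation, had 164 and 151 CPM at 12 h and 105 and 165 CPM at 24 h in labelled WT and KO. The library labelled WT at 24 h was low and the other 3 were close together (log2 0.26, edgeR adjusted p = 0.115). Ifi27l2a, a small interferon-induced membrane protein, had 88.1 and 101 CPM at 12 h and 54.3 and 59.1 CPM at 24 h, with labelled KO slightly higher at each time (log2 0.16, edgeR adjusted p = 0.276). Ifi35, which regulates RIG-I signalling, Rtp4, a receptor chaperone with antiviral activity, and Xaf1, a partner of the apoptosis inhibitor XIAP, had folds of log2 -0.20, log2 -0.19 and log2 -0.24, with edgeR adjusted p from 0.155 to 0.219. Ifi35 had 44.9 and 40.3 CPM at 12 h and 39.0 and 33.0 CPM at 24 h in labelled WT and KO. Rtp4 had 147 and 116 CPM at 12 h and 111 and 108 CPM at 24 h, and Xaf1 had 38.4 and 27.8 CPM at 12 h and 29.0 and 28.7 CPM at 24 h. For Rtp4 and Xaf1 the library labelled WT at 12 h stood above the other 3, which were close together, while Ifi35 was lower in labelled KO at each time.

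The comparison of times asks how the same genes stood after 24 h of IL-4 against 12 h. Of the 36 members, 13 were lower at 24 h and 0 were higher, where 1.13% of all genes tested were called lower and 0.955% higher. At an unadjusted p under 0.05, edgeR gave 25 lower and 0 higher, where 6.5% of all genes were lower and 5.69% higher, and DESeq2 called 8 lower and 0 higher. The median time fold was log2 -0.26 over the members and log2 -0.0044 over all genes, and 34 of 36 members were below 0. In a model of time alone edgeR called 0, with all libraries or after dropping any 1 of them. The time comparison shares its 4 libraries with that of genotype, so the library labelled WT at 12 h, the highest for most members, enters both.

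By role the time fold had a median of log2 0.04 for receptor subunits, log2 -0.23 for transcription factors, log2 -0.28 for sensors and log2 -0.27 for effectors. Ifi27l2a fell by the most, from 88.1 to 54.3 CPM in labelled WT and from 101 to 59.1 CPM in labelled KO. Both libraries at 24 h were below both at 12 h (log2 -0.73 ± 0.08 (SE), edgeR adjusted p = 7.12e-07). Irf7 (log2 -0.69), Ifit2 (log2 -0.68), Ifit3 (log2 -0.63) and Bst2 (log2 -0.60) came next, with edgeR adjusted p from 6.92e-08 to 0.000278. Bst2 went from 269 to 191 CPM in labelled WT and from 259 to 159.9 CPM in labelled KO.

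The other 8 called lower with time were Isg15 (log2 -0.54), Zbp1 (log2 -0.54), Oasl1 (log2 -0.48), Dhx58 (log2 -0.44), Ifi44 (log2 -0.44), Oas1a (log2 -0.42), Rsad2 (log2 -0.36) and Stat2 (log2 -0.30). Their edgeR adjusted p ran from 0.000267 for Zbp1 to 0.0460 for Rsad2. In the model of time alone, Ifit3 had a time fold of log2 0.04 after dropping the 12 h library labelled WT. That fit sets both 24 h libraries against the 12 h library labelled KO alone, so the difference between genotypes enters it. Within each labelled genotype Ifit3 was lower at 24 h, by 1.79-fold in labelled WT and 1.32-fold in labelled KO. Among the genes that differed by genotype, Oas3 (log2 -0.22, edgeR adjusted p = 0.0935), Ifit1 (log2 -0.39, edgeR adjusted p = 0.0929) and Cmpk2 (log2 -0.27, edgeR adjusted p = 0.162) were not called for time. Both 24 h libraries were below both 12 h libraries for 21 of 36 members, where 16.9% of all genes were, and above them for 0, where 15.2% were.

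Taken 2 libraries at a time, the members' median ratio of labelled KO to labelled WT was log2 -0.18 at 12 h and log2 -0.12 at 24 h, and 33 and 28 of the 36 were below 0. Of all genes measured, 50.2% and 51.4% were below 0. For 24 h against 12 h the members' median was log2 -0.36 in labelled WT and log2 -0.17 in labelled KO. A ratio of at least 2-fold was reached by Ifit3 at 12 h, lower in labelled KO, where 0.451% of all genes were at least 2-fold lower and 0.587% higher. At 24 h 0 members reached it, where 0.478% of all genes were lower and 0.568% higher. Over time 0 members reached it, where 0.0635% of genes were lower and 0.0725% higher in labelled WT, and 0.108% lower and 0.153% higher in labelled KO.

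The genotype ratio was not the same at both times for every role. For sensors the median was log2 -0.26 at 12 h and log2 -0.06 at 24 h, and for effectors log2 -0.18 and log2 -0.10. For transcription factors it was log2 -0.20 and log2 -0.25, and for receptor subunits log2 -0.08 and log2 -0.10. Ifit1, Ifit2 and Rsad2 stood farther apart between genotypes at 12 h than at 24 h, whereas Irf7 and Isg15 stood farther apart at 24 h. For Isg15 the ratio at 24 h was 0.907 times that at 12 h (95% counting interval 0.796 to 1.03), which includes 1. The interval lay below 1 for 4 members, Irf1, Irf7, Oas1a and Bst2, and above 1 for 17. The labelled KO to labelled WT ratio at 24 h was above that at 12 h for 23 of 36 members (63.9%), where 48.6% of all genes were. It was 1.71 times that at 12 h for Samd9l (95% counting interval 1.62 to 1.80) and 0.871 times for Bst2. With 1 library for each genotype at each time, this difference was not tested.

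**Figure D4:**
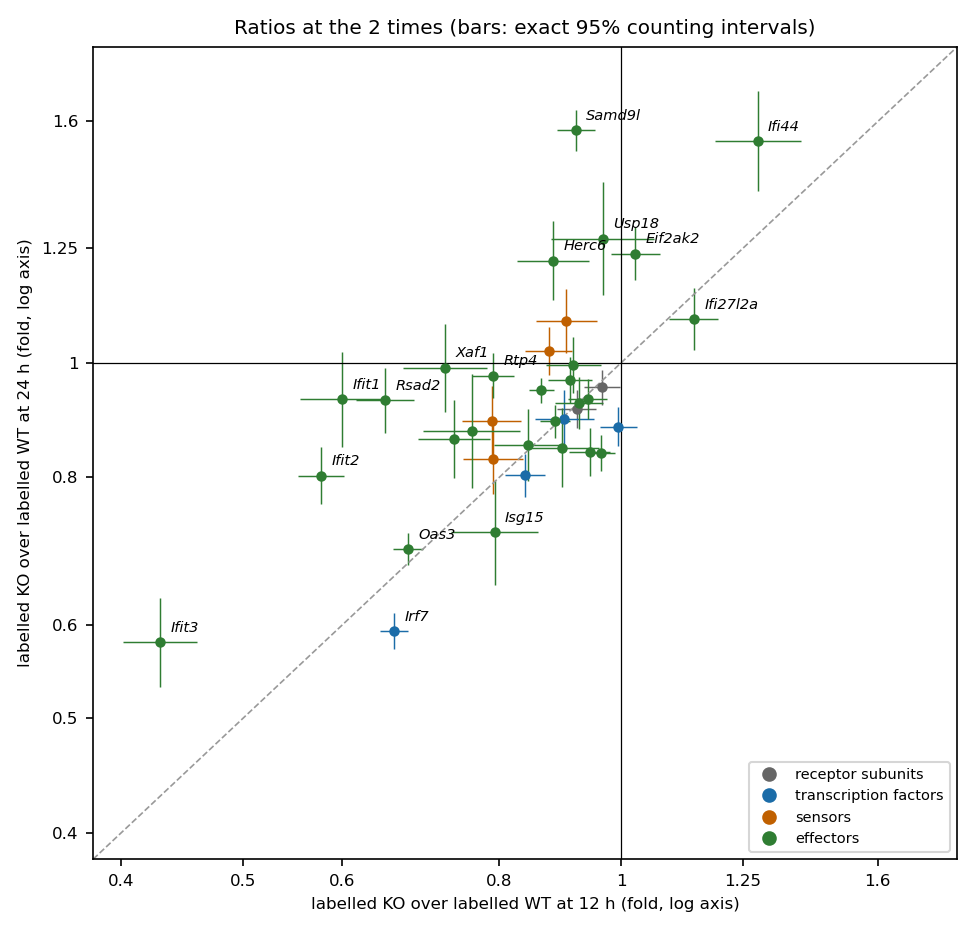
Fold of labelled KO over labelled WT in CPM at 12 h (x axis) and 24 h (y axis), both on log axes, for the 36 members coloured by role, with exact 95% counting intervals as bars and the line of equal folds dashed. Ifit3 and Irf7 are low at both times, Ifit1, Ifit2 and Rsad2 lie above the line, and Samd9l is below 1 at 12 h and above 1 at 24 h.

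Genes upstream and downstream of the members were taken from lists of the pathway. Of the 21 interferon genes listed, Ifng alone had a row in the table used here, with at most 16 counts in a library, and it was not tested. Among 16 genes of induction signalling 1 was called lower and 0 higher, a share near the 5.34% of all genes called lower. It was Ikbke, a kinase that phosphorylates IRF3 and IRF7, at 127 and 99.4 CPM at 12 h and 138 and 89.5 CPM at 24 h in labelled WT and KO (log2 -0.49, edgeR adjusted p = 5.37e-05). At an unadjusted p under 0.05, edgeR gave 4 lower and 0 higher of the 16, where 11% of all genes were lower and 9.77% higher, and DESeq2 called 1 lower and 0 higher. Ikbke was not called in the model of genotype alone after dropping the 24 h library labelled WT. The adaptor genes Mavs (log2 -0.05) and Sting1 (log2 0.11) and the factor gene Irf3 (log2 0.04) were not called.

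Among the genes of receptor signalling and feedback, Socs1, an inhibitor of JAK kinases, was called higher (log2 0.50, edgeR adjusted p = 0.0398), where 4.18% of all genes were. Socs1 had 11.7 and 21.5 CPM at 12 h and 11.2 and 12.0 CPM at 24 h in labelled WT and KO, so that the library labelled KO at 12 h alone stood high. The receptor kinase genes Jak1 (log2 0.08) and Tyk2 (log2 -0.05) were not called. DESeq2 did not call Socs1. Of 6 other IRF and IRF2 cofactor genes tested, 0 were called lower and 1 higher, where 5.34% of all genes were called lower and 4.18% higher. The 1 was Irf4, a factor of alternative macrophage activation (log2 0.70, edgeR adjusted p = 0.000281). It had 13.5 and 20.8 CPM at 12 h and 13.6 and 23.4 CPM at 24 h in labelled WT and KO. Irf4 was not called in the model of genotype alone after dropping either library labelled WT.

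Of 48 other interferon-stimulated genes tested, 9 were called lower and 0 higher in labelled KO, where 5.34% of all genes were called lower and 4.18% higher. Their median was log2 -0.13. At an unadjusted p under 0.05, edgeR gave 18 lower and 1 higher, beside the 11% and 9.77% of all genes, and DESeq2 called 2 lower and 0 higher. In the model of genotype alone the count was 2 with all libraries and 0 to 7 with 1 dropped, the 0 being for the 12 h library labelled WT. After Ifit3b, the called genes with the largest folds were Ms4a4c, a membrane protein gene (log2 -0.88), Slfn1, of the Schlafen family (log2 -0.65), and Helz2, a helicase gene (log2 -0.53). Ly6e, a membrane protein that restricts coronavirus entry, had 1282 and 932 CPM at 12 h and 1221 and 997 CPM at 24 h (log2 -0.38), and Nlrc5, the activator of MHC class I genes, a fold of log2 -0.37. Over the 5 genes after Ifit3b the edgeR adjusted p ran from 2.55e-05 to 0.00617. For time, 4 of the 48 were called lower in edgeR (Ms4a4c, Oas1g, Ifitm3 and Ube2l6) and 0 higher, where 1.13% of all genes were called lower and 0.955% higher. At an unadjusted p under 0.05, edgeR gave 19 lower for time, where 6.5% of all genes were.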

How the data were processed

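The members and lists were chosen with earlier results of these data known. For each of 4 libraries the authors deposited a read count per gene and an FPKM value. StringTie 1.3.0, HISAT2, edgeR and the build mm10 are named, per the submitters' processing notes. Counting tool, annotation release and strand handling: not given in the sources used here. For each gene with counts in all 4 libraries, count over deposited FPKM scaled between libraries with the library total (largest relative deviation 9.77e-15). The gene lengths behind the FPKM values were not checked. These values were used for levels between genes. Counts were TMM-scaled in edgeR 4.0.16 (R 4.3.3), and 10993 genes reaching 1 CPM in 2 or more libraries were tested by quasi-likelihood for genotype and for time, fitted together without an interaction. The common dispersion (0.00602) corresponds to a coefficient of variation of 7.76%. The SE is the log2 fold divided by the square root of F. Log2 ratios of 2 libraries and the 2-fold rule use CPM plus a pseudocount of 1, while folds of single genes are plain CPM ratios with exact 95% binomial intervals from the counts. Every member was named, and of each pathway list up to 6 called genes with the largest folds. Of the pathway lists, 1 gene is not reported here. DESeq2 1.42.0, other scalings, filters and models, and fits without each library were alternatives. Positions are from GENCODE M21 on GRCm38.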

Additional observations from a re-analysis of the deposited data

Results flagged for a closer look

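In 5 members the labelled KO library was below the labelled WT library at 12 h and above it at 24 h, and in 3 of them the 95% counting intervals of both folds left out 1. Of these 3, Ifih1 had a fold of 0.904 at 12 h and 1.08 at 24 h, Herc6 a fold of 0.882 and 1.22, and Samd9l a fold of 0.920 and 1.57. The other two, with an interval that included 1 at one of the times, were Ddx58 with a fold of 0.875 and 1.02 and Usp18 with a fold of 0.966 and 1.27. Samd9l also lay on opposite sides of 1 over time beyond its counting intervals, with a fold of 24 h over 12 h of 0.642 in labelled WT and 1.10 in labelled KO. With 1 library for each genotype at each time, the differences between times and between genotypes in these folds were not tested. The share of all genes on opposite sides of 1 at the 2 times is not given here. Intervals that leave out 1 were common among the members. At 12 h they lay below 1 for 31 of 36 and above it for 2, and at 24 h for 23 and 7. In Ifih1, Herc6 and Samd9l the library labelled WT at 24 h had the lowest CPM of the 4.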

How the results depend on the processing

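The labels carry no replicate numbers to pair libraries by, and the model of genotype beside time compares the genotypes within each time. The count of members lower in labelled KO, 10 as reported, was 4 with DESeq2, 4 with libraries scaled by totals alone, and 1 in a model of genotype alone. The count higher, 1 as reported, was 2 with no filter on low counts and 0 in the model of genotype alone. The count lower at 24 h, 13 as reported, was 8 with DESeq2 and 0 in a model of time alone. The shares of all genes called in these settings are not given here. Whether the counts of members changed more than those of all genes was not tested. The median-of-ratios scaling and a filter of 5 CPM kept all these counts within 1.5 times. With a 1.5-fold rule of size, 5 members were lower in labelled KO at 12 h (2.42% of all genes), 2 lower (2.43%) and 2 higher (3.43%) at 24 h, 8 lower with time in labelled WT (1.05%) and 4 in labelled KO (1.43%). Fits without 1 library also left out the other factor, since none of the spread could be estimated otherwise, and where a group kept 1 library it was assumed to vary like the rest. In them the count lower in labelled KO ran from 0 to 9, the count higher from 0 to 2, the members' median from log2 -0.29 to -0.046, and the count lower at 24 h was 0. Folds that changed sign in at least 1 of these fits were, for genotype, Ifih1 log2 -0.14 to 0.11, Ddx58 log2 -0.18 to 0.020, Zbp1 log2 -0.55 to 0.080, Oas1a log2 -0.43 to 0.072, Oasl1 log2 -0.57 to 0.011, Parp9 log2 -0.16 to 0.031, Parp12 log2 -0.26 to 0.035, Bst2 log2 -0.53 to 0.17, Rtp4 log2 -0.39 to 0.015, Ifi27l2a log2 -0.27 to 0.56, Usp18 log2 -0.083 to 0.38, Herc6 log2 -0.20 to 0.31, Eif2ak2 log2 -0.0049 to 0.35, Samd9l log2 -0.052 to 0.59 and Irf1 log2 -0.21 to 0.023. For time they were Irf9 log2 -0.13 to 0.033, Ddx58 log2 -0.18 to 0.0099, Ifit3 log2 -1.18 to 0.041, Oas3 log2 -0.51 to 0.090, Parp14 log2 -0.21 to 0.00021, Xaf1 log2 -0.41 to 0.055, Ifnar2 log2 -0.029 to 0.10 and Samd9l log2 -0.58 to 0.073. The fold of Ifih1 for genotype was log2 0.041 with scaling by totals alone. That scaling moved the median genotype fold of all genes from log2 -0.0025 to log2 0.055. In each fit without 1 library, a labelled genotype or time keeps 1 library, so the difference of the factor left out enters the fold. The changes of sign therefore do not show that a fold rests on the library dropped. How much of each change came from this was not tested, nor was the cause of the change of Ifih1 with scaling. Every member had at least 1 CPM in every library.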
